A study of Mus musculus with 6 samples.

Results

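The BCL2 family holds the proteins that decide whether the outer membrane of the mitochondrion is opened during apoptosis. Its 10 members described here were the rows of the deposited count table with the gene names Bcl2, Bcl2l1, Mcl1, Bcl2a1b, Bcl2a1d, Bax, Bak1, Bcl2l11, Bid and Bbc3, of 57010 genes in all. All 6 samples held RNA of the mouse macrophage line RAW 264.7, and per the design text the cells of both groups were first stimulated with lipopolysaccharide, a bacterial cell wall molecule that sets off inflammatory gene expression. Vesicles of hypoxia-preconditioned tendon stem cells were then given in 3 samples (hypoxic-EV), and those of normoxic tendon stem cells in the other 3 (normoxic-EV). No untreated cells and no cells without vesicles were analysed here, and differences are between the 2 kinds of vesicle. No source used here gives the species of the tendon stem cells, a dose or a time. Nothing in the labels says that replicates are separate cultures, and the p-values therefore measure a spread that may be technical.

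Pro-survival members (Bcl2, Bcl2l1, Mcl1, Bcl2a1b and Bcl2a1d) bind and hold back the other members. The effectors Bax and Bak1 form the pores through which cytochrome c leaves the mitochondrion. The BH3-only members Bcl2l11 (encoding BIM), Bid and Bbc3 (encoding PUMA) carry death signals to the others. In macrophages, the protein A1 encoded by the Bcl2a1 genes is known as a target of NF-kB, a transcription factor that lipopolysaccharide activates, and Mcl1 as a survival factor of myeloid cells. Mice carry several near-identical Bcl2a1 copies, 2 of which are members here.

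Bcl2a1d, Bcl2a1b and Bcl2a1a, another copy, differ at few bases, so the assignment of their reads is uncertain. Across the 516 bases of coding sequence (GENCODE M21, GRCm38), Bcl2a1d differed from Bcl2a1b at 6 bases and from Bcl2a1a at 7, and Bcl2a1b differed from Bcl2a1a at 11. The first 150 coding bases hold 7 of the 12 positions at which the 3 copies are not all alike, and are shown with those positions in capitals. They lie on chromosome 9 at chr9:88731570-88731719 (minus strand) for Bcl2a1d, chr9:89199360-89199509 (plus strand) for Bcl2a1b and chr9:88957051-88957200 (plus strand) for Bcl2a1a, in GRCm38.
Bcl2a1d: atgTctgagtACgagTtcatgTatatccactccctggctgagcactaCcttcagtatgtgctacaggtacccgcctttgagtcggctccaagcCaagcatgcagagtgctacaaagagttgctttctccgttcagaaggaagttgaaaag
Bcl2a1b: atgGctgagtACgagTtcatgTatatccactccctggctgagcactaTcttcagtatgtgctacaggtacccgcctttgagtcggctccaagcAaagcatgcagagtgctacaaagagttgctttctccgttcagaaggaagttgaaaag
Bcl2a1a: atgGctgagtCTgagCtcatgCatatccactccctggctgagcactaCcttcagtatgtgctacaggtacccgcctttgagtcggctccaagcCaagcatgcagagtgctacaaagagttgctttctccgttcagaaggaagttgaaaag
Of the 764 windows of 100 bases in the Bcl2a1d transcript, 418 (54.7%) were also present in Bcl2a1b or Bcl2a1a. The share was 31.1% for Bcl2a1b and 43.5% for Bcl2a1a. It depended on the window length. At 50 bases it was 79.5% for Bcl2a1d, 57.6% for Bcl2a1b and 67.7% for Bcl2a1a. At 150 bases it was 30.3%, 14.2% and 28.2% in the same order. A read lying wholly in such a window cannot be placed on 1 copy by its sequence, and no source used here says how such reads were treated.

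The upstream regions of these copies are also alike. Promoter windows, from 250 bases before to 50 after the start site (RefSeq, GRCm38.p6), are shown for Bcl2a1d (chr9:88731801-88732100, minus strand) and Bcl2a1b (chr9:89199023-89199322, plus strand). They show how alike the upstream sequence of copies that fell together is. Capitals mark the letters GAGGAAGT, a core bound by the myeloid factor PU.1.
Bcl2a1d: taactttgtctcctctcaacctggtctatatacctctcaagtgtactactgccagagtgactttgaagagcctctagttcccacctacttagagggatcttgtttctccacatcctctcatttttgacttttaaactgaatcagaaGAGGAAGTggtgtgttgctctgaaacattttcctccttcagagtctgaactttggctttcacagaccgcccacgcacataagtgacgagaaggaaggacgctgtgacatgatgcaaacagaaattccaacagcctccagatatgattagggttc
Bcl2a1b: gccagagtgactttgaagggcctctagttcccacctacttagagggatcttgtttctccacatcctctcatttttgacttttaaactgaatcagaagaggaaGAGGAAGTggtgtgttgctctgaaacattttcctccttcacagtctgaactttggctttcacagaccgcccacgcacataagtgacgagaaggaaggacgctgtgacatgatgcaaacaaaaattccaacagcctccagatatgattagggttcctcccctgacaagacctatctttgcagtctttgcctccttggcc
A local alignment of the windows paired 250 bases of Bcl2a1d with Bcl2a1b, of which 3 differed, with 6 gap bases. GAGGAAGT was searched on both strands and began 104 bases before the start site in Bcl2a1d and 148 bases before it in Bcl2a1b. Of 32851 promoter windows of the same length, 3.2% held it. The AP-1 letters TGANTCA, present in 7.81% of windows, began 114 and 164 bases before the start in Bcl2a1d and Bcl2a1b and did not overlap GAGGAAGT. Among the other 8 members, Bak1 held GAGGAAGT on the reverse strand and none held TGANTCA. The NF-kB consensus, in 4.51% of windows, matched 1 window of Bcl2l1 and, in overlapping places, 1 window of Bbc3. It had no match in the Bcl2a1d and Bcl2a1b windows, which says only that these letters are not there. The cyclic AMP response element TGACGTCA, in 1.79% of windows, matched no window of a member.

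Levels within a gene are given as CPM, counts scaled by library size. Of the 10 members, all passed the count filter, 5 were lower in hypoxic-EV, 0 were higher and 5 were not called (edgeR quasi-likelihood test, adjusted p under 0.05 over all genes tested). The same test called 44.2% of 13303 tested genes, 22.7% higher and 21.5% lower, so a call by itself was common in these libraries. Of the 8898 tested genes that averaged at least 10 CPM, as every member did, 52.4% were called. At an unadjusted p under 0.05, edgeR had 7 members lower and 0 higher. At least 6457 of the 13303 tested genes passed that threshold, as Bak1 held that rank at an edgeR p of 0.0393. DESeq2 called 5 members lower and 0 higher, and 4868 genes in all, 2291 of them lower. The members called by edgeR after adjustment were the pro-survival genes Bcl2a1d, Bcl2a1b and Bcl2l1 and the BH3-only genes Bcl2l11 and Bbc3. The median log2 fold change of the 10 members was -0.17, against 0.00 for all tested genes. In 7 members the 2 groups were fully apart, all lower in hypoxic-EV, where 52.8% of tested genes did not overlap in either direction and 26.1% were lower without overlap. In bulk RNA, fewer cells of a type and less RNA per cell cannot be told apart.

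**Figure D1:**
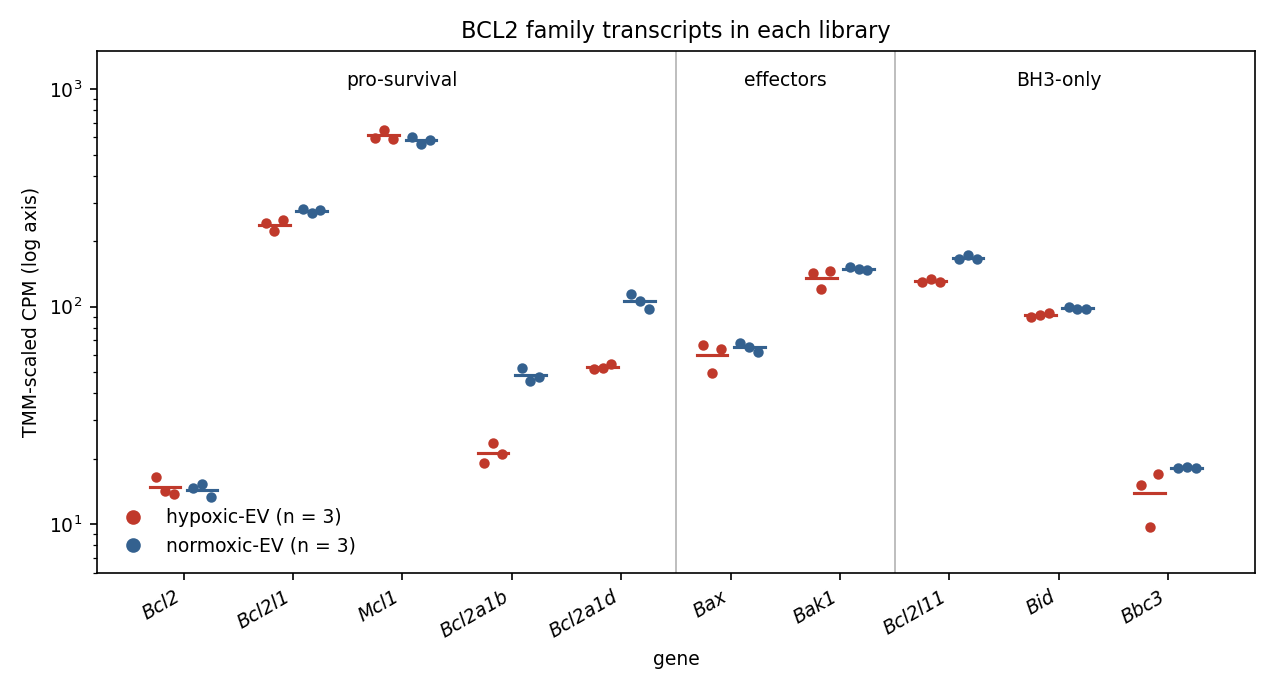
TMM-scaled CPM (log axis) of the 10 members in each of 6 libraries, hypoxic-EV in red left of normoxic-EV in blue, with short lines at the means. Bcl2a1b and Bcl2a1d show the widest gaps between groups (21.3 against 48.5 CPM and 52.9 against 106 CPM), while the groups overlap in Bcl2, Mcl1 and Bax.

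Transcript levels are compared between genes in the deposited FPKM, which divides counts by transcript length and library total. Mcl1 stood highest of the members, between 171 and 189 FPKM in hypoxic-EV and between 164 and 175 FPKM in normoxic-EV. Bcl2a1d was next with 60.3 to 62.9 FPKM in hypoxic-EV and 113 to 133 FPKM in normoxic-EV. Bak1 and Bcl2l1 followed, at means of 56.5 and 51.9 FPKM in hypoxic-EV, where their ranges overlapped, and at 61.8 and 60.2 FPKM in normoxic-EV, where the ranges were apart. Bcl2a1b stood below Bax in hypoxic-EV, overlapping Bid. In normoxic-EV it stood above Bax and overlapped Bcl2l1. The places of Bcl2a1d and Bcl2a1b in this order rest on reads whose assignment is uncertain. Bcl2l11, Bbc3 and Bcl2 closed the order in both groups, and Bcl2, the founding gene of the family, averaged 1.62 ± 0.18 FPKM in hypoxic-EV and 1.58 ± 0.11 FPKM in normoxic-EV (SD, n = 3 each).

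Bcl2a1d and Bcl2a1b, which encode forms of the anti-apoptotic protein A1, fell most among the members. Bcl2a1d (ENSMUSG00000099974, chromosome 9, 88605338 to 88613967, minus strand, GRCm39) had 51.5, 52.4 and 54.7 CPM in hypoxic-EV, against 115, 106 and 97.4 CPM in normoxic-EV. The highest hypoxic-EV library lay far below the lowest normoxic-EV library. The level was 50.02% lower (log2 fold change -1.0005, SE 0.0602, edgeR adjusted p = 2.39e-11). Bcl2a1b (ENSMUSG00000089929, chromosome 9, 89081262 to 89089880, plus strand) had 19.1, 23.6 and 21.1 CPM in hypoxic-EV, against 52.5, 45.8 and 47.3 CPM in normoxic-EV, again with no overlap. Its log2 fold change was -1.19 (SE 0.0785, edgeR adjusted p = 1.08e-10). In the authors' deposited table of 462 genes, whose smallest absolute log2 fold change is 1.0008, Bcl2a1b is the 1 member listed, at -1.19 with an adjusted p of 1.18e-33. Bcl2a1b also overlaps Gm29094 on its own strand over 8449 bases, and that gene had 58 counts, 1.45% of the Bcl2a1b total. How reads matching both genes were counted is not given, so these counts do not bound the effect on Bcl2a1b.

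The other expressed copy, Bcl2a1a, averaged 15.5 ± 0.75 CPM in hypoxic-EV and 47.3 ± 4.89 CPM in normoxic-EV (SD, n = 3 each), which is -1.60 as a log2 difference (SE 0.0816, edgeR adjusted p = 2.05e-12). The copies did not keep a constant proportion. The FPKM of Bcl2a1d over that of Bcl2a1a was 3.26, 3.26 and 3.17 in hypoxic-EV and 2.09, 2.13 and 2.18 in normoxic-EV, with no overlap. Bcl2a1d over Bcl2a1b was 2.56, 2.10 and 2.45 in hypoxic-EV and 2.07, 2.19 and 1.95 in normoxic-EV, where the groups overlapped. These ratios rest on reads that may have been divided between copies and were not tested. When the counts of all 4 Bcl2a1 genes in the table were summed before the fit, the sum was 1449, 1788 and 2144 counts in hypoxic-EV and 3672, 3409 and 4210 counts in normoxic-EV. That sum does not depend on how the counted reads were divided among these genes. Shared reads that were left out or counted more than once would still alter it. The sum was 2.25-fold lower (log2 fold change -1.17, SE 0.0571, edgeR adjusted p = 1.04e-12). Bcl2a1c, the fourth gene, had 2 counts in 1 normoxic-EV library and 0 in the others.

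Bcl2l1, which encodes BCL-XL (chromosome 2, 152622588 to 152673648), was lower by a much smaller amount. It had 242, 223 and 249 CPM in hypoxic-EV, against 280.3, 269 and 279 CPM in normoxic-EV, so the groups did not overlap. The log2 fold change was -0.21 (SE 0.0487, edgeR adjusted p = 0.00119), or 13.8% lower. Mcl1 (chromosome 3, 95566099 to 95570487) had 597, 652 and 589 CPM in hypoxic-EV, against 601, 559 and 584 CPM in normoxic-EV, and the ranges overlapped. Its log2 fold change was 0.08 with a 95% interval from -0.03 to 0.18 (edgeR adjusted p = 0.225). Bcl2 (chromosome 1, 106465908 to 106642004) had 16.5, 14.2 and 13.8 CPM in hypoxic-EV and 14.7, 15.4 and 13.3 CPM in normoxic-EV. Its interval ran from -0.17 to 0.24 on the log2 scale (edgeR adjusted p = 0.785).

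The make-up of the pro-survival transcripts differed between the groups. Mcl1 supplied 55.9%, 57.7% and 54.3% of the summed FPKM of the 5 pro-survival members in hypoxic-EV, against 40.3%, 40.6% and 42.3% in normoxic-EV. Bcl2a1b and Bcl2a1d together supplied 26.6%, 27.1% and 28.1% in hypoxic-EV, against 45.3%, 44.4% and 42.3% in normoxic-EV. Neither share overlapped between groups. With Bcl2a1a counted too, the 3 copies supplied 31.3 ± 0.93% in hypoxic-EV and 50.8 ± 1.78% in normoxic-EV (SD, n = 3 each). The share of Bcl2l1 was 16.3 ± 1.33% in hypoxic-EV and 14.6 ± 0.53% in normoxic-EV, with overlapping values. The summed pro-survival FPKM was 316, 328 and 315 in hypoxic-EV and 434, 403 and 404 in normoxic-EV. The sums and shares are descriptions of transcripts per length and were not tested. Reads shared by the Bcl2a1 copies were counted in a way not known here, which limits every sum and share above.

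**Figure D2:**
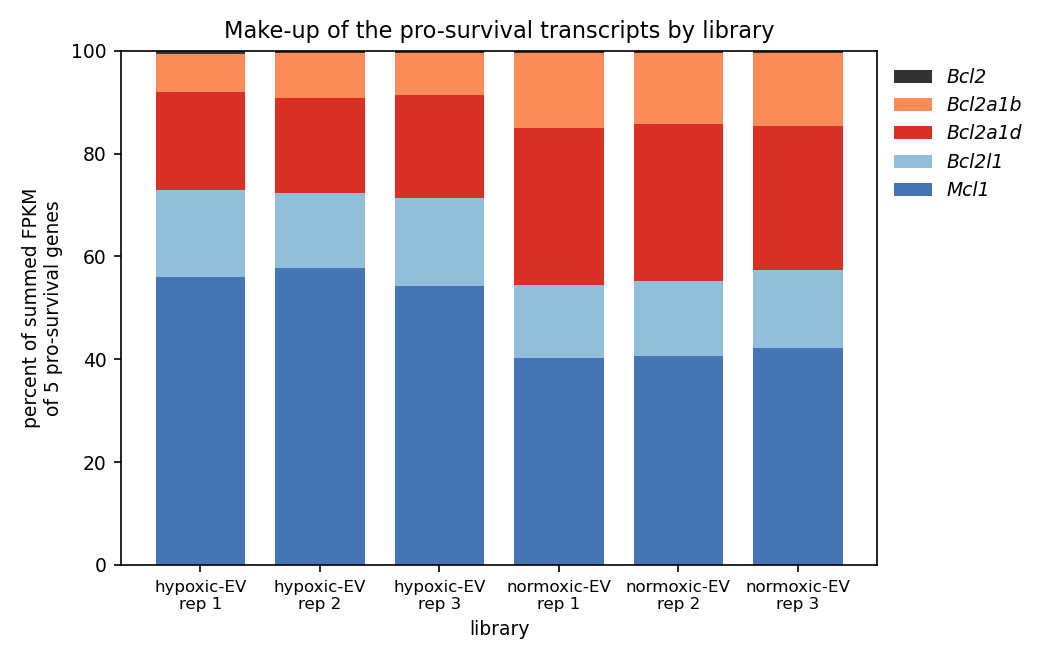
Share of each pro-survival member in their summed FPKM (percent) for each of 6 libraries. Mcl1 takes 54.3% to 57.7% in the hypoxic-EV bars and 40.3% to 42.3% in the normoxic-EV bars. Bcl2a1d and Bcl2a1b together take 26.6% to 28.1% in the hypoxic-EV bars and 42.3% to 45.3% in the normoxic-EV bars. The assignment of reads to these copies is uncertain, which limits all shares shown.

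Neither effector was called, and both values moved when single hypoxic-EV libraries were left out. Bax (chromosome 7, 45111121 to 45116322) had 66.9, 49.5 and 63.6 CPM in hypoxic-EV, against 68.1, 65.4 and 62.1 CPM in normoxic-EV. Only hypoxic-EV replicate 2 stood below the normoxic-EV range. The log2 fold change was -0.12 with a 95% interval from -0.28 to 0.05 (edgeR adjusted p = 0.239), and without hypoxic-EV replicate 2 it was 0.00 (edgeR adjusted p = 0.962). Without hypoxic-EV replicate 1 it was -0.20 (edgeR adjusted p = 0.0643). Bak1 (chromosome 17, 27238784 to 27247983) had 143, 120.3 and 145 CPM in hypoxic-EV, against 151, 149 and 147 CPM in normoxic-EV, so every hypoxic-EV library was lower. Its log2 fold change of -0.13 (95% interval -0.25 to -0.01) did not pass the adjusted threshold (edgeR adjusted p = 0.0809). It was -0.05 without hypoxic-EV replicate 2 (edgeR adjusted p = 0.442) and -0.18 without hypoxic-EV replicate 3, where it did pass (edgeR adjusted p = 0.0332). The FPKM of Bak1 over Bax was 1.49 ± 0.096 in hypoxic-EV and 1.498 ± 0.046 in normoxic-EV (SD, n = 3 each).

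All 3 BH3-only members were lower in every hypoxic-EV library than in any normoxic-EV library, where 26.1% of all tested genes were lower without overlap. Of the 3, Bcl2l11 and Bbc3 passed the test, and the Bbc3 call ended when any of 4 libraries was left out. Bcl2l11 (chromosome 2, 127967958 to 128004467) had 129.6, 135 and 129 CPM in hypoxic-EV, against 165, 173 and 166 CPM in normoxic-EV. The spread within each group was small beside the gap between them. Its log2 fold change was -0.36 (SE 0.0465, edgeR adjusted p = 2.23e-06), or 21.9% lower. The FPKM of Mcl1, whose protein binds BIM, over that of Bcl2l11 was 10.8, 11.4 and 10.7 in hypoxic-EV and 8.56, 7.57 and 8.26 in normoxic-EV. Ratios of the summed FPKM overlapped between groups. The pro-survival sum over the BH3-only sum was 6.44, 7.02 and 6.30 in hypoxic-EV and 7.62, 6.98 and 7.11 in normoxic-EV. Over the effector sum it was 3.07, 4.06 and 3.15 in hypoxic-EV and 4.11, 3.90 and 4.02 in normoxic-EV. These ratios were not tested. Bid, whose protein is cleaved by caspase 8 (chromosome 6, 120868891 to 120893814), had 89.5, 91.4 and 93.3 CPM in hypoxic-EV, against 99.8, 97.6 and 97.9 CPM in normoxic-EV. Its log2 fold change of -0.11 (95% interval -0.21 to -0.01) did not pass after adjustment (edgeR adjusted p = 0.0794). Bid shares 913 bases with Bcl2l13, an opposite-strand gene that rose and had 84.0% of the counts of Bid, so reads there could not be told apart without strand.

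Bbc3, a p53 target that encodes PUMA (chromosome 7, 16042318 to 16052130), had 15.2, 9.70 and 17.04 CPM in hypoxic-EV, against 18.1, 18.3 and 18.2 CPM in normoxic-EV. The normoxic-EV libraries were nearly equal, and hypoxic-EV replicate 2 lay well below its group. The log2 fold change was -0.37 (SE 0.132, edgeR adjusted p = 0.0265). Without hypoxic-EV replicate 2 it was -0.16 and no longer called (edgeR adjusted p = 0.146). The call also ended without normoxic-EV replicate 1, 2 or 3, at -0.37 each time and edgeR adjusted p of 0.0687, 0.0508 and 0.0598. Over all alternatives its adjusted p ran from 0.00192 to 0.146.

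Promoter windows of Bcl2l11 (chr2:128125788-128126087, plus strand) and of 1 of the 3 RefSeq starts of Bbc3 (chr7:16310011-16310310, plus strand), both GRCm38.p6, are shown because both genes fell and each held the FOXO letters GTAAACA on 1 strand, marked in capitals.
Bcl2l11: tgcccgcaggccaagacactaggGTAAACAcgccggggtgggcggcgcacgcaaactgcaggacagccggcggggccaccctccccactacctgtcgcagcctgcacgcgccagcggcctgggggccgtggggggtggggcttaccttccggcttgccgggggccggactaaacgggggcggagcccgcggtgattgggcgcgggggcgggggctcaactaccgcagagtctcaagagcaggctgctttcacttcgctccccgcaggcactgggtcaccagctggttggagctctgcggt
Bbc3: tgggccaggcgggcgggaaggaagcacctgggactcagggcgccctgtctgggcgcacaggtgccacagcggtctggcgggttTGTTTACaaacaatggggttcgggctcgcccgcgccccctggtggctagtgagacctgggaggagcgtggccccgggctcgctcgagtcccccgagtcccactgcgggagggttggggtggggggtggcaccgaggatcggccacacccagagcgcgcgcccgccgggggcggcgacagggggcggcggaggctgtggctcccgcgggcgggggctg
GTAAACA was present on either strand in 3.65% of all windows, and no other member had it. It began 227 bases before the start site in Bcl2l11, and in Bbc3 it lay on the reverse strand, 167 bases before the start. It overlapped no other motif searched. Bbc3 had 3 windows and Bcl2l11 had 2, and these windows were picked after values and matches were seen. Any part of these letters in the lower levels was not tested. The FOXO genes themselves were not called, with log2 fold changes of 0.14 for Foxo1 and 0.09 for Foxo3 (edgeR, adjusted over all genes).

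**Figure D3:**
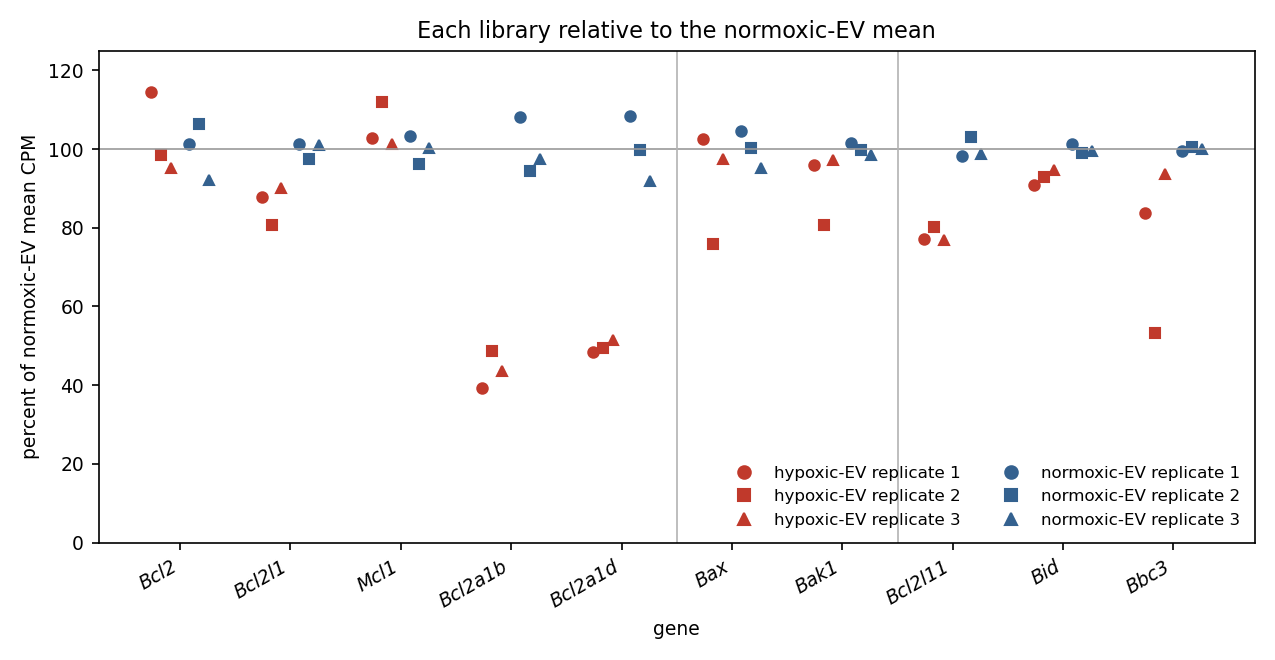
CPM of each member in each library as percent of its normoxic-EV mean, hypoxic-EV in red and normoxic-EV in blue, with a marker shape per replicate. Hypoxic-EV replicate 2 (red squares) lies at 75.9% for Bax, 80.7% for Bak1 and 53.3% for Bbc3, below replicates 1 and 3 of its group, while Bcl2a1d lies between 48.5% and 51.6% in all 3.

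Hypoxic-EV replicate 2 was the lowest of its group for Bax, Bak1, Bbc3 and Bcl2l1, at 75.8%, 83.5%, 60.1% and 90.8% of the mean of the other two libraries. It was the highest of its group for Mcl1, Bcl2a1b and Bcl2l11. Over all tested genes, replicate 2 was the lowest of the group in 35.0%, replicate 1 in 36.1% and replicate 3 in 28.9%. The chi-square per degree of freedom between libraries of a group was 5.38 and 5.84 for the pairs with this library, 3.19 for the other hypoxic-EV pair and between 2.72 and 4.06 in normoxic-EV. The coefficient of variation in hypoxic-EV was 27.3% for Bbc3 and 15.4% for Bax, against 0.418% and 4.62% in normoxic-EV. For Bcl2l11 it was 2.25% in hypoxic-EV and 2.69% in normoxic-EV.

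Other BCL2 family genes moved in both directions. Of 16 listed, 11 were tested, 4 were higher, 3 were lower and 4 were not called, with a median log2 fold change of -0.18 (edgeR, background 44.2% called). Bnip3 and Bnip3l, which encode mitophagy receptors of the outer mitochondrial membrane, rose. Bnip3 averaged 182 ± 1.21 CPM in hypoxic-EV and 91.3 ± 5.15 CPM in normoxic-EV (SD, n = 3 each), which is 0.999 higher on the log2 scale (SE 0.0499, edgeR adjusted p = 1.45e-12), and Bnip3l had 0.45. Bmf, a BH3-only gene, was at 6.16 ± 0.75 CPM in hypoxic-EV and 4.61 ± 0.36 CPM in normoxic-EV (log2 fold change 0.40, edgeR adjusted p = 0.0274). DESeq2 did not make this call (adjusted p = 0.0985). It also ended without hypoxic-EV replicate 1 or 2 or normoxic-EV replicate 1 or 2 (edgeR adjusted p from 0.0769 to 0.0925). The BH3-only genes Pmaip1 and Bad had the other sign. Pmaip1 averaged 66.0 ± 3.46 CPM in hypoxic-EV and 84.5 ± 2.70 CPM in normoxic-EV (log2 fold change -0.36, edgeR adjusted p = 1.7e-05). Bad had -0.22 and was not called (edgeR adjusted p = 0.0791). Bad shares 620 bases with the opposite-strand gene Gpr137, which had 135% of its counts. Of the 5 under the count filter, Bcl2l10 and Hrk had 0 counts in every library, which allows up to 0.179 CPM in the shallowest library, and Bcl2a1c, Bok and Bik had between 2 and 11 counts in all.

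**Figure D4:**
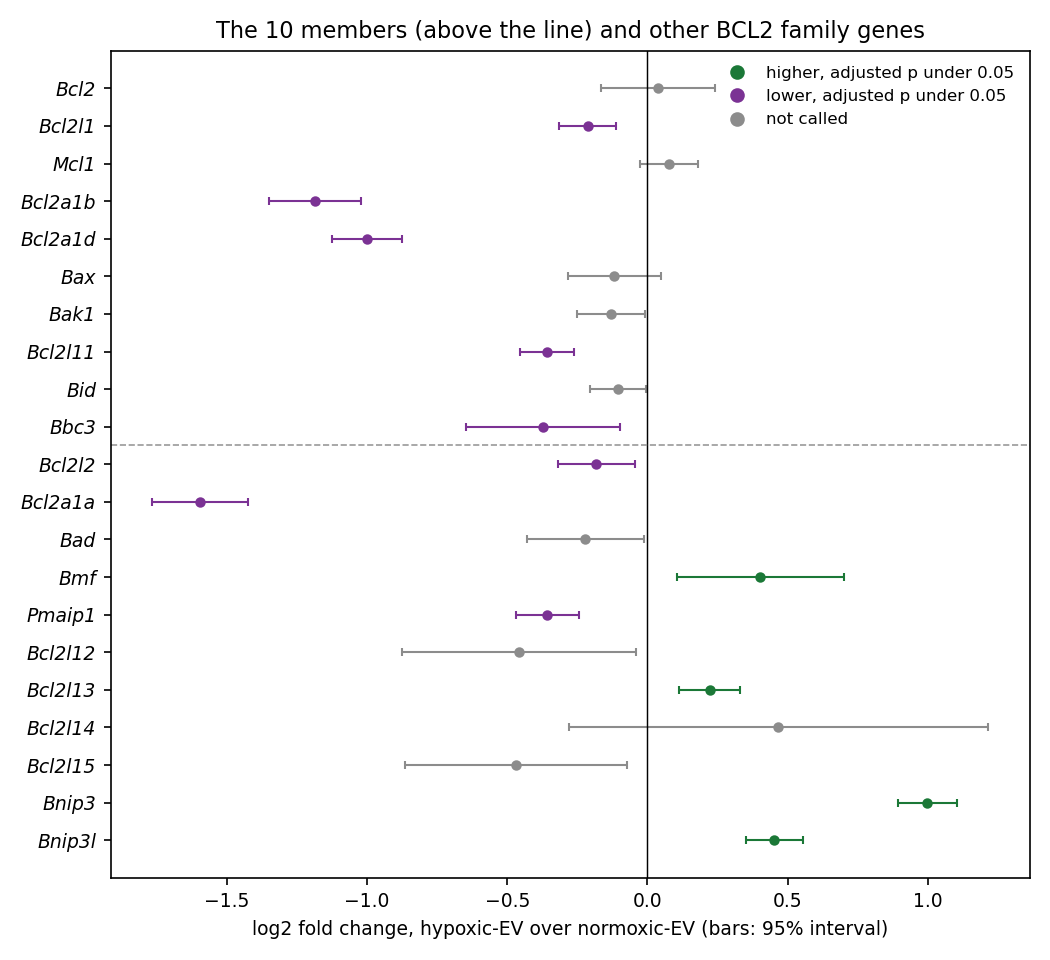
Log2 fold change of hypoxic-EV over normoxic-EV with its 95% interval for the 10 members (above the dashed line) and the 11 other BCL2 family genes tested (below it), coloured by the edgeR call. Bcl2a1a (-1.60), Bcl2a1b (-1.19) and Bcl2a1d (-1.0005) lie farthest left and Bnip3 (0.999) farthest right.

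Downstream of the family, 4 of 15 executors of the mitochondrial route were higher, 0 were lower and 11 were not called, with a median of 0.13 on the log2 scale. The share called was 26.7%, against 44.2% of all tested genes, of which 22.7% were higher. At an unadjusted p under 0.05, which at least 6457 of 13303 tested genes had, edgeR had 6 executors higher and 0 lower. DESeq2 called 3 executors higher and 0 lower, and 2577 genes higher in all. The channel genes Vdac1 and Vdac2, whose proteins carry metabolites across the outer mitochondrial membrane, had log2 fold changes of 0.46 and 0.23, and Aifm1, encoding a flavoprotein released in cell death, 0.27. Apaf1, which builds the apoptosome, had 0.14 (edgeR adjusted p = 0.041) but was not called by DESeq2 (adjusted p = 0.073), and lost its edgeR call without any library other than hypoxic-EV replicate 1 (adjusted p from 0.0627 to 0.125). Casp9, the initiator caspase gene of this route, and Casp6 were not called. The cytochrome c gene Cycs had a log2 fold change of -0.01.

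Of 9 inhibitor of apoptosis genes, 8 were tested, 2 were higher, 4 were lower and 2 were not called. The share called was 75%, against 44.2% over all tested genes (22.7% higher and 21.5% lower). Birc5, encoding survivin, which also acts in mitosis, averaged 64.8 ± 2.97 CPM in hypoxic-EV and 35.1 ± 2.22 CPM in normoxic-EV (SD, n = 3 each, log2 fold change 0.89, edgeR adjusted p = 3.39e-10). Birc3, an NF-kB target encoding cIAP2, had -0.35. Naip2, a sensor of bacterial proteins, had -0.56 and Naip6 0.32 (edgeR adjusted p = 0.0478; DESeq2 adjusted p = 0.143), a call that ended without any library other than normoxic-EV replicate 2 (edgeR adjusted p from 0.0544 to 0.162). The Naip genes are similar in sequence and their reads uncertain. Of 8 genes of the death receptor route that leads to Bid cleavage, 2 were higher, 3 were lower and 3 were not called. Here 62.5% were called, against 44.2% over all tested genes. Cflar, whose product blocks caspase 8 activation, averaged 228 ± 8.01 CPM in hypoxic-EV and 445 ± 3.57 CPM in normoxic-EV (log2 fold change -0.97, edgeR adjusted p = 5.97e-13). The death receptor gene Fas had -0.73, Casp8 0.30 and Ripk1 0.28. Ripk1 overlaps the opposite-strand gene Serpinb6a, which had 299% of its counts. The Casp8 call ended without normoxic-EV replicate 3 (log2 fold change 0.21, edgeR adjusted p = 0.0613).

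Of 14 genes for transcription factors known to act on the family, 13 were tested, 7 were lower, 2 were higher and 4 were not called (median log2 fold change -0.19). The share called was 69.2%, against 44.2% of all tested genes, of which 21.5% were lower. Of the tested genes averaging at least 10 CPM, as these 13 did, 52.4% were called. The NF-kB subunit genes Rel and Nfkb1 had log2 fold changes of -0.53 and -0.32 (edgeR adjusted p = 1.11e-06 and 4.5e-06). Ddit3, encoding the stress factor CHOP, which is known to act on Bcl2l11, averaged 46.7 ± 0.35 CPM in hypoxic-EV and 99.2 ± 10.8 CPM in normoxic-EV (SD, n = 3 each, log2 fold change -1.08, edgeR adjusted p = 2.95e-11). It shares 68 bases with the opposite-strand gene Mars1, which had 198% of its counts. Myc had -0.82. Spi1, encoding PU.1, had -0.29 and Trp53, encoding p53, 0.14.

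**Figure D5:**
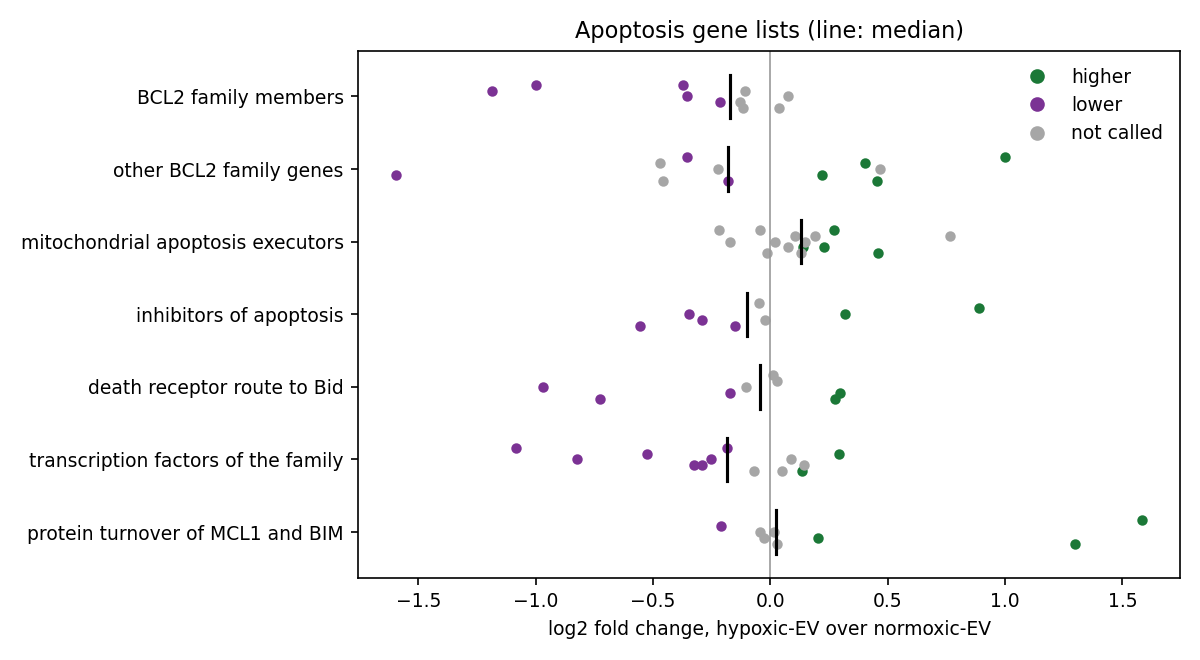
Log2 fold changes of hypoxic-EV over normoxic-EV for the tested genes of 7 lists (the members and the 6 other apoptosis lists, without cell type markers), coloured by the edgeR call, with a line at the median. The members (median -0.17) lie mostly left of 0, the mitochondrial executors (median 0.13) mostly right of it, and the other lists on both sides.

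The 3 tested genes closest to Bcl2a1d in profile were chosen by the root mean square difference of centred log2 CPM over the 6 libraries, among 9956 other genes averaging at least 5 CPM. They were Acod1, which encodes the enzyme that makes itaconate (difference 0.0408 on the log2 scale), Clec4e, which encodes the lectin receptor Mincle (0.0445), and Rapgef2 (0.0464). Acod1 averaged 481 ± 28.0 CPM in hypoxic-EV and 942 ± 82.0 CPM in normoxic-EV (SD, n = 3 each). Clec4e averaged 446 ± 18.9 CPM in hypoxic-EV and 874 ± 50.9 CPM in normoxic-EV.

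Library totals ran from 16751665 to 23422328 counts in hypoxic-EV and from 16788467 to 22514707 in normoxic-EV. All 8 macrophage markers listed were tested, with 2 higher and 5 lower (87.5% called, against 44.2% over all tested genes). Of the tested genes averaging at least 10 CPM, as each of these markers did, 52.4% were called. The summed level of the 8 markers was 7657 to 8058 CPM in hypoxic-EV and 9596 to 9988 CPM in normoxic-EV. Lyz2, which encodes lysozyme, made up most of that sum, with 6091 ± 176 CPM in hypoxic-EV and 7946 ± 208 CPM in normoxic-EV (SD, n = 3 each). The other 7 markers summed to 1767 to 1845 CPM in hypoxic-EV and 1845 to 1906 CPM in normoxic-EV. They did not move one way, as Csf1r, the receptor gene for macrophage colony-stimulating factor, was higher by 1.02 on the log2 scale (edgeR adjusted p = 6.93e-13), while Adgre1, encoding F4/80, had -0.80 and the Fc receptor gene Fcgr1 -0.72. All 10 tendon and stromal markers were under the count filter, with sums of 0.817 to 1.36 CPM in hypoxic-EV and 0.957 to 1.87 CPM in normoxic-EV, and Tnmd, Col1a2, Col3a1 and Thbs4 at 0. Lymphocyte markers summed to 0.766 to 0.885 CPM in hypoxic-EV and 0.239 to 0.642 CPM in normoxic-EV, with Cd3e, Ncr1 and Nkg7 among those at 0. Neutrophil markers summed to 96.1 to 119.9 CPM in hypoxic-EV and 237 to 269.6 CPM in normoxic-EV, and of these 6 genes only S100a8 passed the filter, with Elane at 0. Of the lymphocyte markers, Cd79a passed the filter and was higher by edgeR, at 0.789 CPM in hypoxic-EV and 0.304 CPM in normoxic-EV. It had only 14, 15 and 18 counts in hypoxic-EV and 3, 8 and 6 in normoxic-EV, and DESeq2 called 0 lymphocyte markers. The part of the macrophage, lymphocyte and neutrophil marker levels in the member results was not tested.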

How the data were processed

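Libraries of poly(A) RNA were sequenced paired-end (Illumina HiSeq), per the labels' protocols. Alignment and counting tools named in the submitters' processing notes are featureCounts and HISAT2, beside DESeq2 and the build GRCm39; no source used here gives versions, the annotation, the strand setting or how reads with several matches were counted. The authors deposited whole-number counts for 57010 genes and FPKM values, which scale counts by gene length and library total. The authors also deposited normalized counts (a signal), which equalled counts divided by 1 size factor per library within a relative deviation of 5.3e-15. The authors' deposited comparison table gives log2 fold changes, a test score, p-values and adjusted p-values.

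The test was that of edgeR 4.0.16 (R 4.3.3) on the deposited counts: filterByExpr (minimum count 10, minimum total 15), TMM scaling, the two-sided quasi-likelihood F-test of hypoxic-EV over normoxic-EV, and Benjamini-Hochberg adjustment over 13303 genes. CPM are TMM-scaled, errors are SD unless SE is written, with SE taken as the absolute log2 fold change over the root of F. Alternatives were DESeq2 1.42.0, RLE scaling, no count filter, a replicate block, and each library left out. The script was tested on simulated data. Levels between genes use the deposited FPKM, with no test. Where a gene had 0 counts, up to 3 remain possible, equal to 0.128 to 0.179 CPM by library, for counting error only.

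All 10 members are named. From each other list except the marker lists, the 4 called genes of largest change are named, if the higher group averages 1 CPM or more. Foxo1, Foxo3, Spi1, Trp53, Cycs, Huwe1, Usp9x, Casp6, Casp9, Pmaip1, Bad and the marker genes were added after their values were seen. The members and lists were chosen with earlier results of these data known. All 111 listed symbols matched the count table, and Ddit3, listed there in a second row with no counts, was taken from its first row. Each of the 10 members had a RefSeq promoter window. Some listed genes are counted but not reported here by name. Sequences were aligned with Biopython 1.88.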

Additional observations from a re-analysis of the deposited data

How the results depend on the processing

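Across 10 alternatives, members called lower numbered 4 to 6 when each library was left out and 5 under RLE scaling, DESeq2, no count filter and the replicate block, and 0 were called higher in each. Genes called over all tested numbered 4993 to 5778 without each library, 5866 with RLE scaling, 4868 with DESeq2, 5716 without the filter and 5662 with the replicate block, against 5877. Samples with the same replicate number did not deviate together (correlations of -0.02, -0.05 and -0.03 across genes), so the numbers were not taken as pairs. Apoptosis pathway genes called higher numbered 5 to 8 without each library, against 8, with 5 without normoxic-EV replicate 3. Bcl2a1d, Bcl2a1b, Bcl2l1 and Bcl2l11 stayed called and lower under each alternative, Bbc3 lost its call without hypoxic-EV replicate 2 or any normoxic-EV library, and Bak1 gained one without hypoxic-EV replicate 3. The causes were not tested. Of 37 genes for which every alternative was run (the members, those the naming rule took from the other lists and the 3 closest to Bcl2a1d), 29 kept their side of the threshold and no called gene turned direction. Apaf1 also lost its call with the replicate block (edgeR adjusted p = 0.0537). With 3 libraries a group and 1 contrast, changes as small as those of Bax, Bak1 and Bid were not resolved, and near-identical copies limit the Bcl2a1 values.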

Other observations

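Bcl2a1d, Bcl2a1a and Bcl2a1b lie within chromosome 9, 88605338 to 89089880 (GRCm39), and 8 other tested genes reach within 300000 bases of that stretch. Of these, 5 were higher and 1 was lower in hypoxic-EV by edgeR, with a median log2 fold change of 0.25. Over all tested genes, 22.7% were higher and 21.5% lower. The RNA-binding protein gene Syncrip averaged 274 CPM in hypoxic-EV and 225 CPM in normoxic-EV (0.28 on the log2 scale, SE 0.0502, edgeR adjusted p = 0.000112), and Snx14 had 0.49. The 1 lower gene was Mthfs, a folate enzyme gene that starts after Bcl2a1b on the same strand, at 2.62 CPM in hypoxic-EV and 5.18 CPM in normoxic-EV (-0.97 on the log2 scale, SE 0.174, edgeR adjusted p = 0.000108). These genes were named after their values were seen.

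Of 9 genes for the turnover of the MCL1 and BIM proteins, 8 were tested, 3 were higher, 1 was lower and 4 were not called. The share called was 50%, against 44.2% over all tested genes. Of the tested genes averaging at least 10 CPM, as these 8 did, 52.4% were called. Ube2c and Cdc20, which act with the anaphase-promoting complex in mitosis, averaged 77.7 ± 4.34 and 89.7 ± 2.02 CPM in hypoxic-EV and 25.9 ± 2.10 and 36.4 ± 1.90 CPM in normoxic-EV (SD, n = 3 each). Cdc20 shares 53 bases with the opposite-strand gene Elovl1, which had 120% of its counts. Fbxw7, encoding a ubiquitin ligase subunit that targets MCL1, had a log2 fold change of 0.20 and Btrc -0.21, and DESeq2 did not call Btrc. The Fbxw7 call ended without hypoxic-EV replicate 2 or normoxic-EV replicate 1 or 2 (edgeR adjusted p from 0.0567 to 0.102), and that of Btrc without any library other than normoxic-EV replicate 3 (0.054 to 0.233). The MCL1 ligase gene Huwe1 and the deubiquitinase gene Usp9x had 0.03 and 0.02 and were not called.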
